A study of Mus musculus with 6 samples.

Results

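Glycolysis and hypoxia genes were examined in long-term hematopoietic stem cells (LT-HSCs), which sit in the marrow and renew all blood lineages for life, of WT and Lxn-/- mice. Lxn encodes latexin, a protein that inhibits carboxypeptidases. The set was a fixed list of 30 genes, of which 20 belong to glucose uptake, glycolysis and its switches and 10 are regulators or targets of hypoxia-inducible factor (HIF). Each gene was represented by the probe set named for it alone with the highest mean over all 6 arrays, which gave 27 measured genes of 19939 on the array. No probe set used here was named for Gpi1 or Eno1, and Gapdh was named only on 25 probe sets that it shares with other genes, so these 3 were not counted. The WT pools carried an intact latexin gene, and the Lxn-/- pools carried a deletion of exons 2 to 4 of it. All mice were C57BL/6 females, 8 to 12 weeks of age. Cells were sorted from marrow as lineage negative, Sca1 and c-Kit positive and negative for CD34 and for a marker the labels call Flt2. Each genotype had 3 pools of about 100000 cells, each from 10 to 20 mice and each hybridised to 1 Affymetrix Gene ST array.

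LT-HSCs in the marrow are known for a low oxygen niche and for drawing much of their energy from glycolysis, which splits glucose to pyruvate in the cytosol. HIF is the transcription factor that links oxygen to this pathway: with oxygen present, prolyl hydroxylases of the EGLN family mark its alpha subunit for destruction, and without it the subunit accumulates and switches on genes of glucose uptake, glycolysis and lactate formation. Pyruvate dehydrogenase kinases (PDK) inhibit pyruvate dehydrogenase and so limit the oxidation of pyruvate in mitochondria. The transcription factor Meis1 is known as an activator of Hif1a in these cells.

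HIF binds DNA at a short core, and promoters are shown for the 4 measured members with the most matches to it, ties going to the lower p, because their expression is described further on. The motif searched was ACGTG on either strand, so that ACGTG or CACGT counts on the printed strand, and overlapping matches, as in CACGTG, counted as 1. Each window holds 300 bases around a RefSeq transcription start in GRCm38.p6, printed on the gene's strand with matches in capitals. A window of Ldha (chr7:46845554-46845853, plus strand) had 3 matches, and Hk2 (chr6:82774405-82774704, minus strand), Pgk1 (chrX:106186850-106187149, plus strand) and a window of Hk1 (chr10:62340372-62340671, minus strand) had 2 each. Where a gene had several windows, the one with the most matches is shown. The other window of Ldha and that of Hk1 had 0 matches.
Ldha: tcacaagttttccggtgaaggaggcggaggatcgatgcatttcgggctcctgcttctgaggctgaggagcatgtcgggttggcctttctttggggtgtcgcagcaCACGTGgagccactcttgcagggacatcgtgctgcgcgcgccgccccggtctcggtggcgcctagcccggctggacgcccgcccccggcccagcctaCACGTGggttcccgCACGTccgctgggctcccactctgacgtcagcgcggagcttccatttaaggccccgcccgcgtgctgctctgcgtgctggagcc
Hk2: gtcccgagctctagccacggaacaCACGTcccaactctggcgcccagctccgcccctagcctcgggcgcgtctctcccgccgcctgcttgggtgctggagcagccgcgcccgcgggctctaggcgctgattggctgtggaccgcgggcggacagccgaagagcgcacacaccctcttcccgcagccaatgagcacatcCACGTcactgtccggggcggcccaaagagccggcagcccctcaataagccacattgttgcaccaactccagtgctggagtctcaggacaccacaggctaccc
Pgk1: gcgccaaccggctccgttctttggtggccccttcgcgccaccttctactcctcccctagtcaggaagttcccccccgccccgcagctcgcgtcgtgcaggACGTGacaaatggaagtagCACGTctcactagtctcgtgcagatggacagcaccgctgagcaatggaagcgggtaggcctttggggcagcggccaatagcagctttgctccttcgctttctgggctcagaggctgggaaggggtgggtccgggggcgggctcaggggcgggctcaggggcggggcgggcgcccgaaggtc
Hk1: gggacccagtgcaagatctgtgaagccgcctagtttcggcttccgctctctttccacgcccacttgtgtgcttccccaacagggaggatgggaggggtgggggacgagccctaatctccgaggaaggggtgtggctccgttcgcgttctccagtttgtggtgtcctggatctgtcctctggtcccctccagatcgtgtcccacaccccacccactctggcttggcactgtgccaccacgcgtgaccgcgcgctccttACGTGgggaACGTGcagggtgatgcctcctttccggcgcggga

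A match was present in at least 1 window of 20 of the 29 members with a promoter in the table, or 69%, and in 5886 of all 27025 genes, or 21.8%. By class, 12 of 20 glycolytic members and 8 of 9 HIF regulators and targets held one. The member windows were richer in G and C, with a median of 64.2% against 52.7% over all windows. Between the quartiles of the member windows, 56.9% and 67.5%, a match was found in 11 of 20 member windows (55%) and in 2092 of 7963 windows of all genes (26.3%). Many members were listed because they are known to respond to hypoxia, and the share of matches was not tested. The 19 measured members with a match had a median genotype difference of -0.012 on the log2 scale, and the 7 without a match had -0.017.

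No glycolysis or hypoxia gene could be called different between Lxn-/- and WT LT-HSCs. In limma, 0 of the 27 members passed an adjusted p of 0.05, where 0% of all genes passed, and the adjusted p-values of the members ran from 0.993 to 0.999. At an unadjusted p under 0.05 there were also 0 of 27 members, against 3.76% of all genes. The 3 values of each genotype overlapped for every measured member, whereas they did not overlap for 8.79% of all genes. The exact two-sided permutation p of the 27 genes ranged from 0.2 to 1, and 3 arrays against 3 cannot give less than 0.1. Values are log2 expression from robust multi-array average (RMA), differences are Lxn-/- minus WT, and SE is the moderated standard error of limma. Each limma p weighs a difference against the spread between pools of cells, moderated over all tested probe sets.

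The size of the differences was small. For 22 of the 27 members the difference was under 0.1 in either direction, and the median was -0.012, beside -0.013 over all genes. The 95% confidence interval lay within 0.5 of 0 on either side for 26 members, which is 1.41-fold in either direction, and the exception was Hk2. Differences were above 0 for 12 members and below 0 for 15, and 44% of all genes were above 0. The median was -0.017 for the 17 measured glycolytic members and 0.0091 for the 10 HIF regulators and targets. After all arrays were set to a common median, which moved the median of all genes to -0.058, these became -0.063 and -0.036. Array weights gave -0.088 for the glycolytic members. Without single arrays the glycolytic median ran from -0.051 to 0.024 and the HIF median from -0.0083 to 0.061, so neither sign was stable. The common median also took Pfkp, Ldha, Pfkfb3, Pdk1 and Hif1a from just above 0 to just below it.

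**Figure D1:**
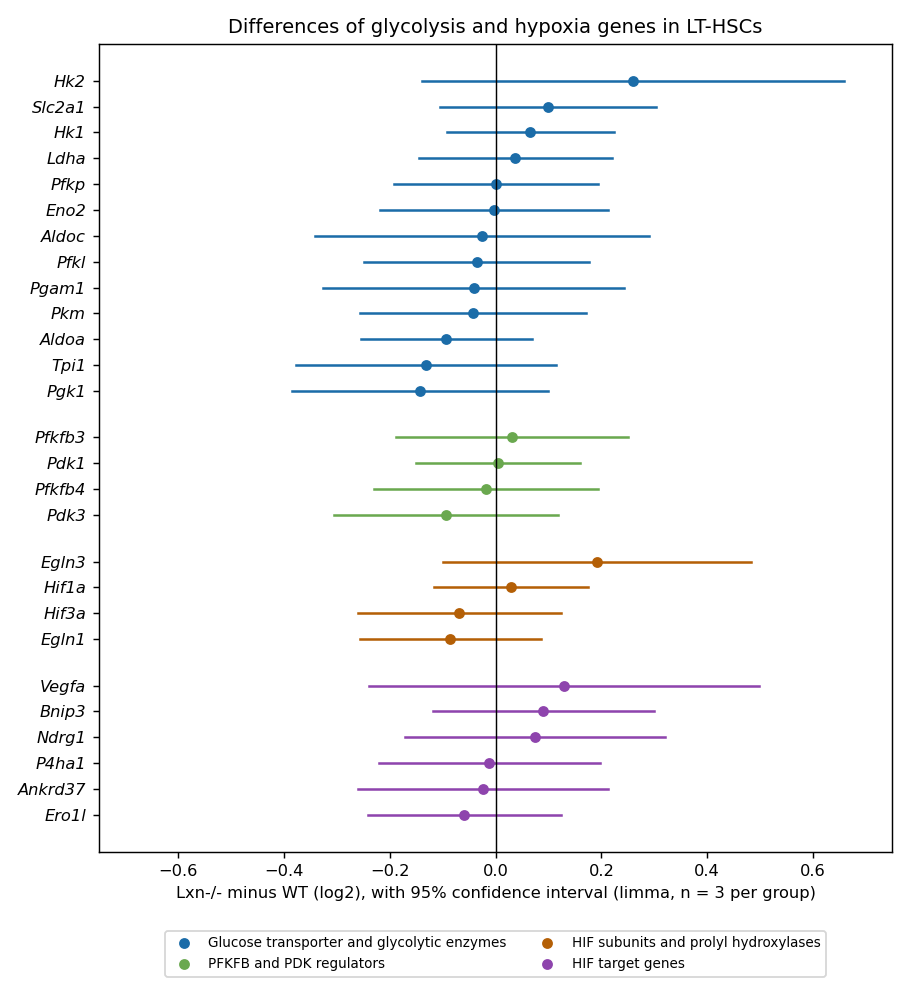
Difference of each of the 27 measured genes, Lxn-/- minus WT in log2 units, with its 95% confidence interval from limma (3 arrays per genotype), in 4 colours by role. All 27 intervals include 0, and the widest reaches 0.66 for Hk2.

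The 6 arrays had median log2 values between 7.77 and 7.91. As a check of the labels, the Lxn probe set had 8.99, 9.09 and 9.55 in WT and 8.66, 8.78 and 8.78 in Lxn-/-, with no overlap, although it was not called (difference -0.47, SE 0.14, limma adjusted p = 0.993) and no source used here places its probes relative to the deleted exons. Of the LT-HSC markers Kit, Procr, Mecom, Hlf and 8 others, 12 of 12 measured lay above the 95th percentile of odorant and vomeronasal receptor probe sets on all 6 arrays, a yardstick for background of 6.88 to 7.02. Cd34, on which the gate selected against the protein, was also above it, at 13.01 to 13.31. So were the other genes listed with Cd34 as negative markers, which made 4 of 4. The gate as described above does not name Cd48 or Fcgr3. Flt3 lay at 11.59 to 12.20, Cd48 at 10.18 to 10.55 and Fcgr3 at 8.32 to 9.16. All 27 measured glycolysis and hypoxia genes exceeded this background on all 6 arrays. Among markers of other cells, differences were above 0 for 14 of 17 neutrophil genes (median 0.47, but -0.17 without WT replicate 3). They were below 0 for 12 of 12 erythroid (median -0.28), 12 of 13 B cell (-0.38), 10 of 10 plasma cell (-0.52) and 21 of 21 mitosis genes (-0.16). The erythroid and mitosis medians were -0.093 and -0.088 without Lxn-/- replicate 3, and the B cell median was -0.19 without WT replicate 3 and with array weights. Their part in the differences of glycolysis and hypoxia genes was not tested. In such pools, fewer cells of a type and less RNA per cell cannot be told apart.

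Glucose enters through Slc2a1 (probe set 10507594), the basal glucose transporter GLUT1. Its log2 values were 11.07, 11.16 and 11.18 in WT and 11.18, 11.12 and 11.41 in Lxn-/-, a difference of 0.099 (SE 0.089). Lxn-/- replicate 3 was the highest array, and the other 5 lay close together with the genotypes mixed.

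Hexokinases trap glucose as its phosphate. Hk2 (probe set 10545588), the inducible isoform, had the largest difference among the members, 0.26 (SE 0.17, 1.20-fold), with 9.85, 9.98 and 9.49 in WT and 9.85, 9.87 and 10.38 in Lxn-/-. The means were 9.77 ± 0.25 and 10.03 ± 0.30 (SD, n = 3 each). That gap rested on the extremes of both genotypes, since WT replicate 3 was the lowest array and Lxn-/- replicate 3 the highest, while the other 4 lay between 9.85 and 9.98. Without Lxn-/- replicate 3 the difference was 0.086, without WT replicate 3 it was 0.12, and with array weights 0.095. Its limma adjusted p was 0.993, and its spread within genotypes exceeded that of 96.2% of all genes.

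Hk1, the ubiquitous isoform, was affected by the annotation of the probe sets. The brightest one named for Hk1 alone (10414661), with 13.27, 13.22 and 13.24 in WT and 13.40, 13.26 and 13.26 in Lxn-/- (difference 0.066, SE 0.068), rests on 1 accession that the annotation also lists for 16 probe sets shared between Hk1 and the ribosomal protein gene Rpl17. It is therefore uncertain as a measure of Hk1. The other probe set named for Hk1, whose accessions include RefSeq transcripts, had 11.41, 11.46 and 11.51 in WT and 11.46, 11.59 and 11.44 in Lxn-/-, with a difference of 0.037 (SE 0.071). Both sets of values overlapped between genotypes.

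In the middle of the pathway, the phosphofructokinase subunits Pfkl and Pfkp, which catalyse the committed step, differed by -0.036 (SE 0.092) and 0.00072 (SE 0.083). Aldoa (probe set 10568050), the main aldolase of blood cells, had 12.63, 12.74 and 12.75 in WT and 12.59, 12.57 and 12.69 in Lxn-/-. Its difference of -0.093 (SE 0.070) had the lowest permutation p of the members (exact, 0.2), because only WT replicate 1 fell below the highest Lxn-/- array. The related Aldoc differed by -0.026 (SE 0.14), and Tpi1, which interconverts the products of aldolase, by -0.13 (SE 0.11).

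Pgk1 (probe set 10399379), phosphoglycerate kinase and a textbook HIF target, forms the first ATP of the pathway. Its values were 11.74, 12.02 and 12.12 in WT and 11.78, 11.77 and 11.90 in Lxn-/-, with means of 11.96 ± 0.20 and 11.82 ± 0.072 (SD, n = 3 each) and the lowest difference of all members at -0.14 (SE 0.10, limma adjusted p = 0.993). WT replicate 1 was the lowest of the 6 arrays and the other WT arrays the highest, so the ranges overlapped. Without WT replicate 1 the difference was -0.25, with a limma unadjusted p of 0.0163 and adjusted p of 0.735, and that of Tpi1 was -0.24. The annotation names 3 probe sets for Pgk1 with the same accessions, and the values of 2 of them are identical, so these are not independent measures.

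The 25 probe sets shared by Gapdh and its copies, which cannot be assigned to the gene alone, had differences from -0.078 to -0.054 and unadjusted p-values of at least 0.398 in limma. None of the 25 was free of overlap between genotypes. Pgam1, phosphoglycerate mutase, differed by -0.041 (SE 0.12), and the enolase Eno2 by -0.0023 (SE 0.093). Other probe sets named for Pgam1, with values identical to one another, gave -0.027 (SE 0.096).

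Pkm (probe set 10585932), the pyruvate kinase outside liver and red cells, had 11.40, 11.50 and 11.34 in WT and 11.29, 11.28 and 11.55 in Lxn-/-. The highest and the lowest array were both Lxn-/-, and the difference was -0.043 (SE 0.093). A second probe set of Pkm gave -0.017 (SE 0.11). Ldha (probe set 10553301), which turns pyruvate to lactate and whose printed promoter window held the most motif matches, had 12.98, 13.12 and 13.23 in WT and 13.12, 13.18 and 13.16 in Lxn-/-. All 3 Lxn-/- values lay inside the WT range, and the means were 13.11 ± 0.13 and 13.15 ± 0.031 (SD, n = 3 each), with a difference of 0.037 (SE 0.079).

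The switches of the pathway varied as little. Pdk1 (probe set 10472846), a HIF-induced kinase of pyruvate dehydrogenase, had 10.38, 10.43 and 10.37 in WT and 10.44, 10.31 and 10.44 in Lxn-/-, a difference of 0.0053 (SE 0.067) with a confidence interval from -0.15 to 0.16. Its relative Pdk3 differed by -0.093 (SE 0.092). Pfkfb3 and Pfkfb4, which make the activator of phosphofructokinase, differed by 0.030 (SE 0.095) and -0.017 (SE 0.092).

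Hif1a (probe set 10396421), the oxygen-regulated subunit, spread least within genotypes of all 27 members, with 11.02, 11.05 and 11.09 in WT and 11.05, 11.13 and 11.07 in Lxn-/-. The means were 11.06 ± 0.037 and 11.09 ± 0.042 (SD, n = 3 each). The difference was 0.030 (SE 0.063, 95% confidence interval -0.12 to 0.18), and its spread within genotypes exceeded that of only 4.6% of all genes. The activity of the factor is controlled at the protein, which arrays do not measure. Hif3a, a subunit with inhibitory splice forms, differed by -0.068 (SE 0.083).

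Of the prolyl hydroxylases, Egln1 (probe set 10582712), the main oxygen sensor, had 9.31, 9.47 and 9.37 in WT and 9.39, 9.28 and 9.24 in Lxn-/- (difference -0.085, SE 0.074). Egln3 (probe set 10400304), a hydroxylase that HIF itself induces, had 9.83, 10.03 and 9.80 in WT and 10.14, 9.82 and 10.29 in Lxn-/-. The means were 9.89 ± 0.12 and 10.08 ± 0.24 (SD, n = 3 each). Its difference of 0.19 (SE 0.13) had the lowest unadjusted p of all members in limma, 0.167 (adjusted p = 0.993). Lxn-/- replicates 1 and 3 were above every WT array and Lxn-/- replicate 2 was among the lowest. Without Lxn-/- replicate 2 the difference was 0.32, at a limma unadjusted p of 0.0143 and an adjusted p of 0.972.

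Among HIF targets, Vegfa (probe set 10451198), the endothelial growth factor, spread most, with 10.31, 9.97 and 9.80 in WT and 10.38, 9.88 and 10.21 in Lxn-/-. High and low arrays occurred in both genotypes, and the difference was 0.13 (SE 0.16). Bnip3 (probe set 10414269), a receptor for the removal of mitochondria by autophagy, had 9.15, 9.38 and 9.30 in WT and 9.43, 9.23 and 9.45 in Lxn-/-, a difference of 0.090 (SE 0.090). A second probe set of Bnip3 gave 0.071 (SE 0.065).

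The remaining targets had differences between -0.059 and 0.075. Ndrg1, a stress-induced gene of growth arrest, differed by 0.075 (SE 0.11) and P4ha1, a prolyl hydroxylase for collagen, by -0.012 (SE 0.091). Ankrd37 differed by -0.024 (SE 0.10) and Ero1l, an oxidase of disulfide formation that the annotation calls Ero1a, by -0.059 (SE 0.079).

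**Figure D2:**
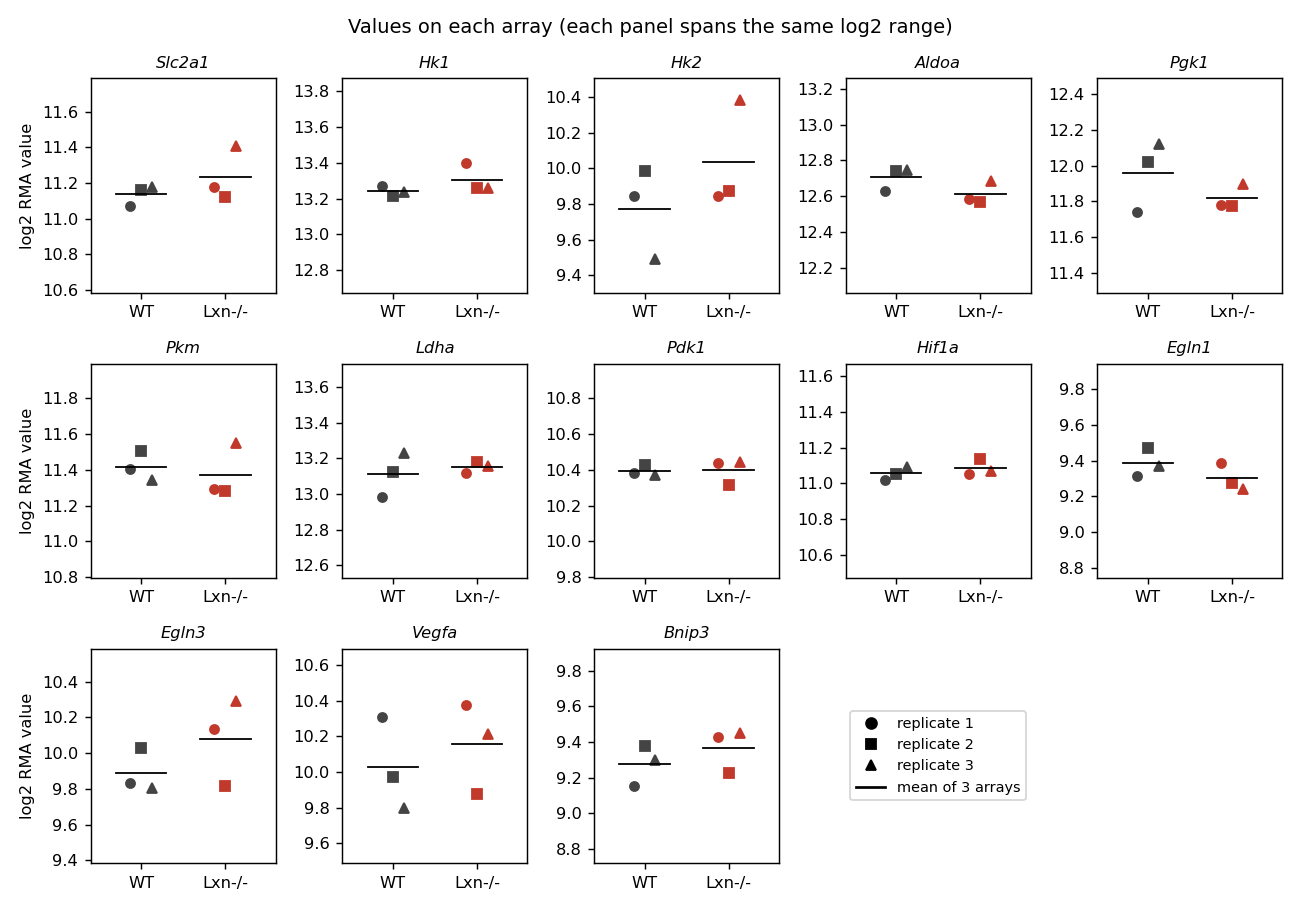
Log2 RMA values of 13 members on each array, with WT in grey, Lxn-/- in red, the replicate by symbol and the mean of 3 arrays as a line. Every panel spans the same log2 range, and the genotypes overlap in each of them.

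The members also showed how single pools stood apart. WT replicate 1 was the lowest array for 11 of the 27 members (40.7%), and for 17.2% of all genes. It was the lowest for 7 of the 13 enzyme and transporter genes. Lxn-/- replicate 3 was the highest array for 9 members (33.3%), and for 18.2% of all genes. Genes of a pathway are not independent, so these counts describe the pools and no test was made.

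Taking each gene against its own mean over 6 arrays, the 13 enzyme and transporter genes averaged -0.098, 0.089 and 0.014 in WT and -0.057, -0.055 and 0.11 in Lxn-/-. The 6 HIF targets averaged 0.0026, 0.036 and -0.089 in WT and 0.068, -0.10 and 0.082 in Lxn-/-. Within each genotype, therefore, some pools lay above and some below the mean on both measures, and the range over 6 arrays was 0.20 and 0.18.

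Markers of other cells varied far more across the same pools. Neutrophil markers averaged 0.65, 0.083 and -1.23 in WT and 0.25, -0.75 and 1.0 in Lxn-/-. The arrays with the highest and the lowest Hk2, Lxn-/- replicate 3 and WT replicate 3, were also those with the highest and the lowest neutrophil list. Between these extremes the orders differed. From high to low, Hk2 ran WT replicate 2, Lxn-/- replicates 2 and 1, then WT replicate 1. The neutrophil list ran WT replicate 1, Lxn-/- replicate 1, WT replicate 2, then Lxn-/- replicate 2. The 3 arrays highest in Vegfa were the 3 highest in neutrophil markers too. Of 17 neutrophil markers, 14 were above background on all 6 arrays and 0 were below it on all, and the log2 of their summed signal ranged from 14.82 to 15.65 in WT and from 15.29 to 15.79 in Lxn-/-. Immediate early genes, which sorting can induce, averaged 0.13, -0.13 and -0.46 in WT and 0.10, 0.063 and 0.29 in Lxn-/-, with 22 of 22 above background on all arrays and a log2 summed signal of 15.79 to 16.28 and 16.22 to 16.44. The immediate early list, too, was highest in Lxn-/- replicate 3 and lowest in WT replicate 3, the extremes of Hk2. Its 3 highest arrays were also the 3 highest in Vegfa, so neither match was particular to neutrophil markers. The part of either list in the values of Hk2 and Vegfa was not tested.

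**Figure D3:**
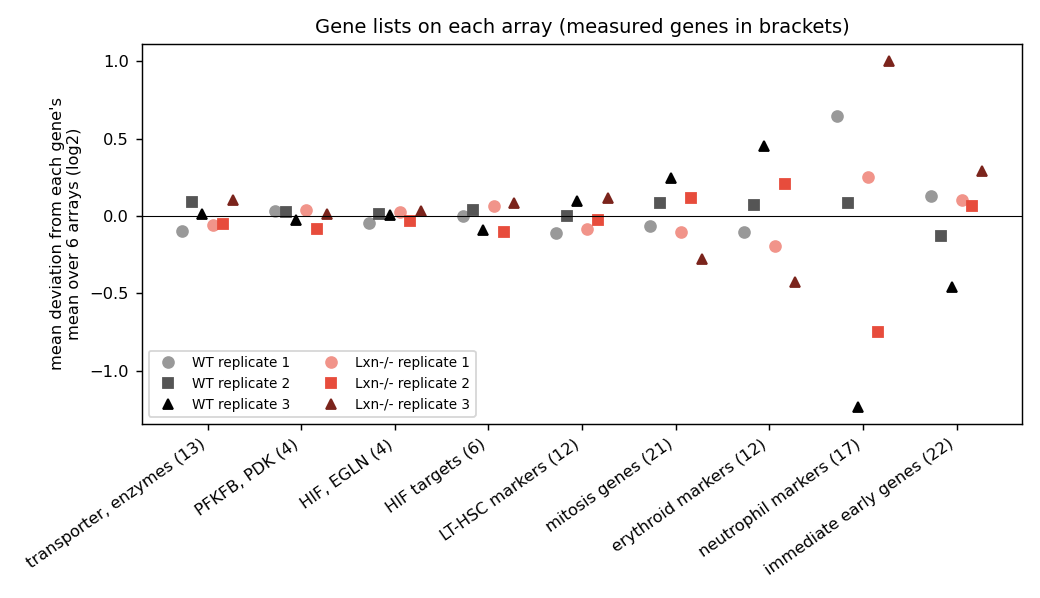
Mean deviation of each gene list from the gene's own mean over 6 arrays (log2), for each array, with WT in grey to black and Lxn-/- in red. The 4 lists of glycolysis and hypoxia genes stay between -0.10 and 0.11, whereas the neutrophil markers run from -1.23 to 1.0.

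Wider lists of both pathways were read in the same fit. Of 23 further measured genes of glycolysis and lactate transport, 0 passed the adjusted p in limma, 1 was lower at an unadjusted p under 0.05 (2.47% of all genes) and the median difference was -0.021. That gene was Bpgm, which makes the bisphosphoglycerate of red cells, with 8.12, 8.30 and 8.25 in WT and 7.93, 7.88 and 8.06 in Lxn-/-, a difference of -0.26 (SE 0.080, limma unadjusted p = 0.0111, adjusted p = 0.993) and no overlap. It kept this direction without any single array, from -0.32 to -0.23. Pgam5, a phosphatase of mitochondria, also had no overlap (difference -0.078, SE 0.060), and 5.49% of all genes were lower without overlap. The next 2 by p, Ldhc and Pgk2, known from sperm, were below background on all arrays.

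Pklr, the pyruvate kinase of liver and red cells, had the widest gap of this list and was chosen after its values were seen. Its values were 10.26, 10.72 and 11.42 in WT and 10.13, 11.04 and 9.79 in Lxn-/-, a difference of -0.48 (SE 0.36) that ran from -0.84 without Lxn-/- replicate 2 to -0.17 without WT replicate 3. From high to low the arrays ran WT replicate 3, Lxn-/- replicate 2, WT replicates 2 and 1, and Lxn-/- replicates 1 and 3, the order also of the means of the erythroid markers and of the genes of mitosis. Erythroid markers averaged -0.10, 0.069 and 0.45 in WT and -0.20, 0.21 and -0.43 in Lxn-/-, with 12 of 12 measured above background on all arrays and a log2 summed signal of 14.75 to 15.23 in WT and 14.54 to 15.09 in Lxn-/-. Bpgm did not follow that order, since it was lowest in Lxn-/- replicate 2. The part of erythroid cells in either gene was not tested.

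At the entry of pyruvate into mitochondria, 0 of 11 measured genes passed in limma at either threshold, with a median of 0.029. Pdhb, a subunit of pyruvate dehydrogenase, had the lowest limma unadjusted p, 0.0659 (adjusted p = 0.993), at a difference of 0.18 (SE 0.083). The number of these genes at an unadjusted p under 0.05 was 1 with array weights, 1 with the replicate number as a block and 3 without WT replicate 1. The share of all genes under that p was not computed in these settings, so the counts show nothing particular to this list. The kinases Pdk2 and Pdk4, known for their role in HSC glycolysis, differed by -0.064 (SE 0.12) and -0.17 (SE 0.12), and Pdk4 exceeded background on only 2 of 6 arrays. Pdp1, a phosphatase that reverses these kinases, differed by 0.096 (SE 0.066). The 9 measured genes of the pentose phosphate pathway, which branches off from glucose phosphate, had a median of -0.014, 0 at either threshold and 8 below 0, with -0.17 (SE 0.11) for Rpia, -0.10 (SE 0.073) for Taldo1 and -0.083 (SE 0.074) for Pgls.

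Among 18 other regulators of HIF, 0 passed in limma at either threshold and the median was -0.023. Meis1 had 12.29, 12.29 and 12.24 in WT and 12.41, 12.27 and 12.54 in Lxn-/-, a difference of 0.13 (SE 0.082). Vhl, the ubiquitin ligase subunit that removes hydroxylated HIF, was higher in Lxn-/- without overlap, as 3.30% of all genes were, by 0.087 (SE 0.065). Siah1a, a ligase that acts on EGLN proteins, differed by 0.093 (SE 0.067). Epas1, the HIF2 alpha subunit, had 8.09, 7.79 and 8.61 in WT and 8.07, 8.56 and 7.71 in Lxn-/-, a spread above that of 98.7% of all genes, with a difference of -0.050 (SE 0.25).

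Of 33 other measured HIF targets, 0 passed the adjusted p in limma, 1 was higher at an unadjusted p under 0.05 (1.28% of all genes) and the median was -0.0016. It was Ddit4, an inhibitor of the growth kinase mTORC1 that hypoxia and other stresses induce, with 9.23, 9.34 and 9.26 in WT and 9.40, 9.40 and 9.49 in Lxn-/-. The 3 Lxn-/- values lay above the 3 WT values, with a difference of 0.16 (SE 0.066, limma unadjusted p = 0.0462, adjusted p = 0.993). Its limma unadjusted p stayed under 0.05 in 5 of 16 alternative settings. Among those 5, allowing probe sets with several symbols and taking RefSeq probe sets reused the main fit, so the p could not change. The p missed 0.05 in 11, among them quantile normalization (0.1045), a common median (0.2225), array weights (0.0934) and the replicate block (0.0644). Of the immediate early genes, 20 of 22 were above 0 in the same comparison, with a median of 0.28 (0.14 without WT replicate 3). Their part in Ddit4 was not tested. Wsb1 and Hilpda, the next by p, differed by 0.20 (SE 0.096) and 0.18 (SE 0.092), and 6 of the 33 were below background on all arrays, among them the kidney hormone gene Epo.

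**Figure D4:**
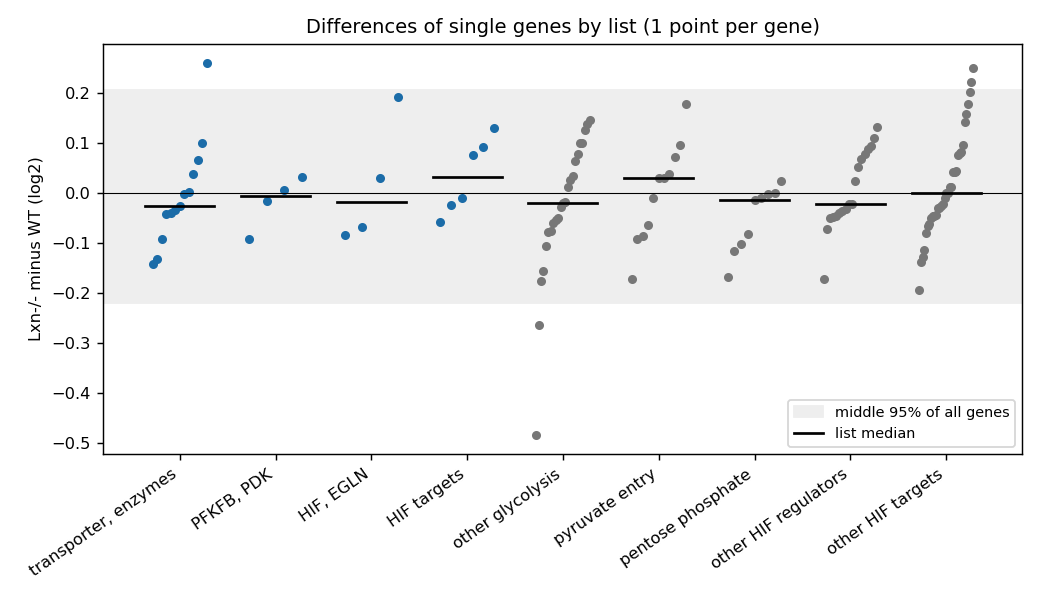
Difference of each measured gene, Lxn-/- minus WT in log2 units, for the 4 groups of members in blue and the 5 lists of other pathway genes in grey, with list medians as lines and the middle 95% of all genes, -0.22 to 0.20, as a band. Medians lie between -0.026 and 0.032, and Pklr at -0.48 is the lowest point.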

How the data were processed

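LT-HSC RNA from 3 WT and 3 Lxn-/- pools was hybridised to 1 array each; per the labels' protocols, biotinylated cRNA was made from 100 ng of total RNA. The authors deposited 1 table of log2 values after RMA, as the series' design text states. The submitters' processing notes list RMA with Partek 6.0, and no source used here gives the background step or the probe set definitions. The number of arrays limits the precision.

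Of 35557 probe sets, GEO's platform annotation gave 21789 a single symbol and 1621 several, and left 12147 unnamed. The 23410 named ones were tested with limma 3.58.1 in R 4.3.3 (lmFit and eBayes, all 6 arrays, no covariates, two-sided, Benjamini-Hochberg over all of them, threshold 0.05 on the adjusted p). The step was tested on simulated data with independent noise, which held no shifts shared by many genes of a pool as the real arrays do. Counts over all genes use 1 probe set per gene. Ero1l was matched through its RefSeq synonym. Background was read from 1210 odorant and vomeronasal receptor probe sets.

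The members and lists were chosen with earlier results of these data known. Array values are given for 13 members set by a rule, and for other genes where named: the 3 of lowest p in each further list, plus Meis1, Epas1, Pdk2 and Pdk4. Pgam5, Pklr and Epo were chosen after their values were seen. Promoters were taken for the 4 measured members with most motif matches. Sequences are from RefSeq (GRCm38.p6). Alternatives were quantile or common-median scaling, a filter on dim probe sets, array weights, a replicate block, another variance model, other choices of probe set and leaving out each array.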

Additional observations from a re-analysis of the deposited data

How the results depend on the processing

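Under all 16 alternatives, limma called 0 measured members and 0 named probe sets at the adjusted threshold, and the lowest adjusted p of a member was 0.660. Without single arrays, members at an unadjusted p under 0.05 numbered 0 to 2 (2 without WT replicate 1) and members without overlap 1 to 6, with fewer arrays to overlap. The matching shares of all genes were not computed for these fits, so the counts show nothing particular to the members. The signs of 13 of 27 members held under every alternative. Leaving out single arrays gave -0.13 to 0.038 for Pfkl, -0.047 to 0.082 for Pfkp, -0.15 to 0.057 for Aldoc, -0.14 to 0.10 for Pgam1, -0.10 to 0.053 for Eno2, -0.13 to 0.0050 for Pkm, -0.028 to 0.098 for Ldha, -0.065 to 0.097 for Pfkfb3, -0.070 to 0.052 for Pfkfb4, -0.017 to 0.047 for Pdk1, -0.10 to 0.051 for Ankrd37, -0.069 to 0.072 for P4ha1, -0.022 to 0.16 for Ndrg1, -0.27 to 0.17 for Epas1 and -0.21 to 0.042 for Pdk2. Quantile normalization turned Pfkp (-0.018), Pfkfb3 (-0.0015) and Pdk1 (-0.0035). A common median turned Pfkp (-0.044), Ldha (-0.0077), Pfkfb3 (-0.015), Pdk1 (-0.040) and Hif1a (-0.015), and array weights turned Pfkp (-0.088), Pfkfb4 (0.0063), Pdk1 (-0.0093), P4ha1 (0.019), Ndrg1 (-0.032) and Epas1 (0.16). With every array kept, the median of other HIF targets moved by more than the spread between pools with quantile normalization (-0.028). With a common median, those of other glycolysis genes (-0.066), other HIF regulators (-0.068) and other HIF targets (-0.047) did. Some fits without single arrays moved medians that far too. Among them were other glycolysis genes (-0.063) and the pentose phosphate pathway (-0.10) without WT replicate 1. Others were other HIF regulators without Lxn-/- replicate 3 (0.033) and other HIF targets without WT replicate 3 (0.036). Without single arrays, medians ranged from -0.051 to 0.024 for the glycolytic members, -0.0083 to 0.061 for the HIF regulators and targets, -0.0071 to 0.050 for pyruvate entry, -0.063 to 0.0051 for other glycolysis genes, -0.10 to 0.017 for the pentose phosphate pathway, -0.019 to 0.033 for other HIF regulators and -0.0087 to 0.036 for other HIF targets. The limma unadjusted p of Ddit4 was 0.05 or more in 11 of 16 alternatives, including every single array left out other than WT replicate 2. That of Bpgm was under 0.05 in 16 of 16. Allowing probe sets with several symbols and taking RefSeq probe sets reused the main fit, so neither p could change in these settings. The cause of the changes in the other settings was not tested.

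No source used here states that replicate numbers pair the pools. Same-numbered WT and Lxn-/- arrays had deviations correlated at 0.372, -0.0719 and -0.0807, and WT replicate 3 correlated with Lxn-/- replicate 2 at 0.362. Deviations within a genotype sum to 0, so these correlations depend on one another and cannot tell whether the numbers pair the pools. With the replicate number as a block, 0 of 27 members were called in limma (lowest adjusted p 0.911). Of these members, 0 were at an unadjusted p under 0.05 and 0 changed sign, while 1 gene of pyruvate entry came under an unadjusted p of 0.05. The share of all genes under that p was not computed with the block. Using the brightest probe set with a RefSeq transcript, an alternative chosen after seeing the data, changed no count.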
